A study of Mus musculus with 6 samples.

Results

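The genes described here are Ptcra, which encodes the pre-TCR alpha chain, and the 4 genes of the CD3 chains, Cd3g, Cd3d, Cd3e and Cd247. They were chosen by symbol in the 6-library expression table, where each of the 5 names matched a single row of 41386. Their levels were compared between GFP-positive and GFP-negative thymocytes of the DN4 stage, 3 libraries in each group, isolated from adult C57BL/6 mice. All cells had the genotype Gata3(g/+), in which a Gata3 reporter allele that yields GFP lies over a wild-type allele, so neither group comes from mice without the reporter. Nothing in the labels says that each library is a different animal or whether animals were pooled. The p-values therefore reflect how far these libraries lie apart, which may be technical variation. The study concerns GATA3 abundance and allelic exclusion at the T cell receptor (TCR) beta locus, and this experiment sets cells with GFP against cells without it. In bulk RNA, fewer cells of a type and less RNA per cell cannot be told apart.

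The pre-TCR is the receptor that thymocytes use at beta selection, where they are tested for a TCR beta chain that works. In it the TCR beta chain pairs with the invariant pre-TCR alpha chain, which stands in for a TCR alpha chain not yet made. Neither chain signals by itself. Both rely on the CD3 chains, of which CD3 epsilon pairs with CD3 gamma and with CD3 delta, while the zeta chain, encoded by Cd247, forms a dimer with itself. The cytoplasmic tails of these chains carry tyrosine motifs called ITAMs, which Lck phosphorylates and to which the kinases ZAP-70 and Syk bind. Once TCR alpha rearranges at the double-positive stage, it takes the place of pre-TCR alpha, and Ptcra is known to be shut down after beta selection, whereas the CD3 chains are kept for the life of the T cell.

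The sequence around the start site of the genes is shown first for those that moved in opposite directions, Ptcra and Cd247, and for the neighbours Cd3g and Cd3d, which are transcribed away from each other. Each is the RefSeq (GRCm38.p6) window of 250 bases before to 50 after the start site, written 5′ to 3′ on the strand of the gene. Capitals mark the E-box CANNTG, the motif of E proteins, of which the E2A and HEB products act on the Ptcra and Cd3 control regions.
Ptcra, chr17:46763663-46763962, minus strand: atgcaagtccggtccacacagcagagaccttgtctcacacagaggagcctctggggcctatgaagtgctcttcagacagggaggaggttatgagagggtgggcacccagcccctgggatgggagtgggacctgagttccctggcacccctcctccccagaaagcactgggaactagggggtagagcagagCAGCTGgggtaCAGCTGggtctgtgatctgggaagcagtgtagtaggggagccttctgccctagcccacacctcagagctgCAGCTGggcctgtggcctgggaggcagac
Cd247, chr1:165788431-165788730, plus strand: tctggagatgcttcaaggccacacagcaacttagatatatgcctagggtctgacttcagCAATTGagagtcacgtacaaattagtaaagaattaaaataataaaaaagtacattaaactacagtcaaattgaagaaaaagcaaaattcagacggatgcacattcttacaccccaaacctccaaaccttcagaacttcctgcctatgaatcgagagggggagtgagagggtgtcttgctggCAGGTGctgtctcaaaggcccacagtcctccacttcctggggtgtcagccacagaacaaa
Cd3g, chr9:44980382-44980681, minus strand: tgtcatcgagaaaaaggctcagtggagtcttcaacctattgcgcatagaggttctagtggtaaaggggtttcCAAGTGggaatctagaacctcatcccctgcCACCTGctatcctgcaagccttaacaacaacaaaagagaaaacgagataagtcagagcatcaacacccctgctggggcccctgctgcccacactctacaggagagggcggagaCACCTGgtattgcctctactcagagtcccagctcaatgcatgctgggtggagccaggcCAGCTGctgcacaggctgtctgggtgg
Cd3d, chr9:44981536-44981835, plus strand: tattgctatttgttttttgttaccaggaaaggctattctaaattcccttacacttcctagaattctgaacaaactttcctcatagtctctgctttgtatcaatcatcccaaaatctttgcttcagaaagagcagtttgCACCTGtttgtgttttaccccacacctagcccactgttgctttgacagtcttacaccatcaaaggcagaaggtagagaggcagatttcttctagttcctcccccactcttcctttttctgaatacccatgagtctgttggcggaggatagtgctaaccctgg
An E-box was found in each of the 5 windows, and in 72.3% of all 32851 promoter windows of that length, with a median of 1 per window. Ptcra held 3, all with the letters CAGCTG, Cd3g held 4, Cd3e and Cd247 held 2 each and Cd3d held 1. The GATA string AGATAA was present, on either strand, in Cd3g alone among the 5, and in 11.2% of all windows. GTGGGAA, the string of the Notch partner RBPJ, was also found in Cd3g alone, where it overlaps an E-box, and in 6.38% of all windows. The Ets string GGAAGT had 2 matches in Cd247 and 1 each in Cd3d and Cd3e (23.8% of all windows). The string TGNGGT, a loose form of the Runx core, matched in all 5 (45.8%), in Ptcra with an overlap of an E-box. Its matches read TGGGGT or, for the other strand, ACCCCA or ACCTCA. None of them read TGTGGT or TGCGGT, the letters of the Runx core, so no Runx core was found in the 5 windows. These matches describe the letters in the windows and are not evidence of binding.

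Ptcra was called higher in GFP-positive cells, and Cd247, Cd3d and Cd3e were called lower. The call of Ptcra was lost in 5 of 17 alternative analyses and that of Cd3e in 2 of them. The size of the decrease differed from chain to chain, from 2.41-fold lower for Cd247 to 1.35-fold lower for Cd3e by the ratio of the means, and Cd3g missed the threshold. Values are FPKM, fragments per kilobase of transcript and per library size as the authors deposited them, which are scaled to length, so that levels of different genes can be set side by side. The test was limma on log2(FPKM + 0.5), fitted to 11465 genes with a mean of at least 1 FPKM, with Benjamini-Hochberg adjustment over all of them and a threshold of 0.05. Of all genes tested, 54.2% passed, 24.4% of them all as higher and 29.8% as lower in GFP-positive cells, so that a call as such is common in this comparison. Of the 5 genes, 1 rose, 3 fell and 1 did not pass. Their median log2 fold change was -0.43, and that of the 4 CD3 genes -0.59, against -0.08 for all genes tested.

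Ptcra, the only chain of the set that is particular to the pre-TCR, was measured as 21.3, 20.9 and 18.7 FPKM in the GFP-positive libraries, in order of number, and as 12.5, 16.6 and 15.4 FPKM in GFP-negative libraries 1 to 3. The groups did not overlap, although only 2.05 FPKM lay between the lowest GFP-positive and the highest GFP-negative library. The mean was 20.3 ± 1.43 FPKM in GFP-positive and 14.9 ± 2.11 FPKM in GFP-negative cells (SD, n = 3 each), a 1.37-fold difference. The log2 fold change was 0.45 ± 0.14 (SE, 95% interval 0.14 to 0.76, limma adjusted p = 0.0215). The call depended on single libraries. With library 1 of both groups left out the log2 fold change was 0.30 (adjusted p = 0.108), and in limma on the authors' separate table of the same 4 libraries it was 0.20 (adjusted p = 0.256). It was also lost without GFP-negative library 1 (0.33, adjusted p = 0.0557), without GFP-positive library 1 (0.41, adjusted p = 0.0642) and without GFP-positive library 2 (0.42, adjusted p = 0.0725). The authors' deposited table of 6 libraries gave Ptcra a q of 0.595, and their deposited table of 4 libraries a q of 0.898, neither of which is a call. Ptcra lies on chromosome 17, positions 46755663 to 46763712, on the minus strand of mm10.

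**Figure D1:**
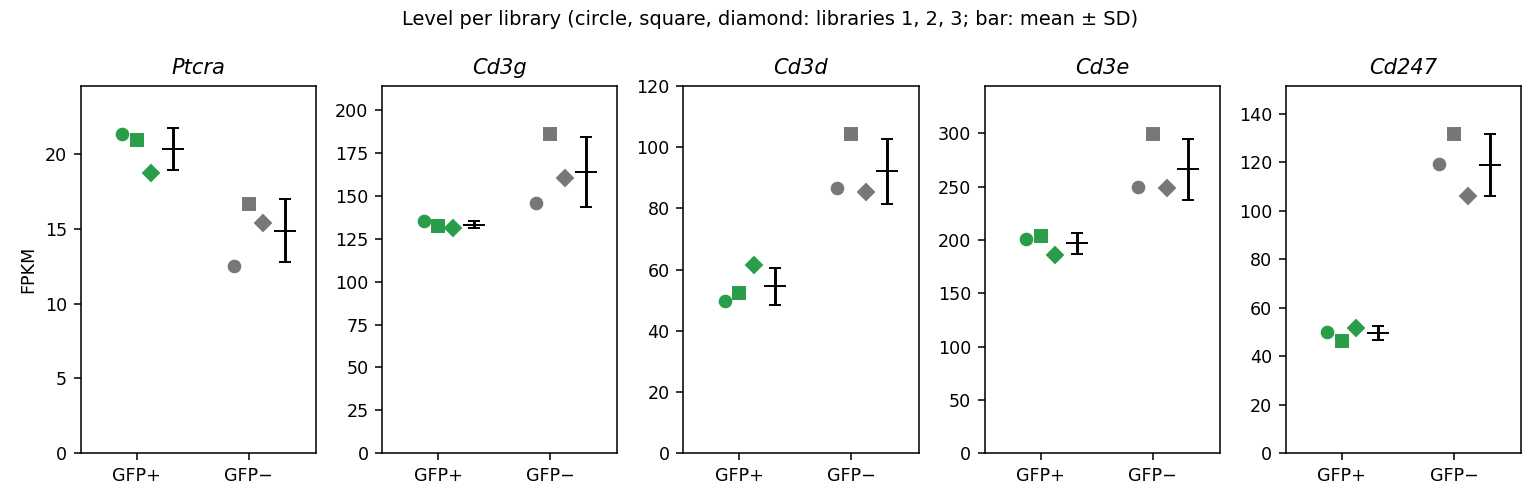
FPKM of the 5 genes in each library, GFP-positive (green) left of GFP-negative (grey), each panel with its own axis from 0, symbols for libraries 1 to 3 and bars for the mean ± SD (n = 3). Ptcra is higher in every GFP-positive library, and the CD3 genes are lower, with the widest gap for Cd247 and the narrowest of the CD3 genes, relative to its level, for Cd3g.

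Cd247 encodes the zeta chain, which carries more ITAMs than any other chain of the complex and is added last in its assembly. It had 50.2, 46.2 and 51.9 FPKM in GFP-positive libraries 1 to 3, against 119, 132 and 106 FPKM in GFP-negative libraries 1 to 3. The lowest GFP-negative library lay 54.1 FPKM above the highest GFP-positive library. The mean of 49.4 ± 2.90 FPKM in GFP-positive cells was 41.6% of the 119 ± 12.9 FPKM in GFP-negative cells (SD, n = 3 each). On the log2 scale Cd247 fell by 1.25, with an SE of 0.12 and a 95% interval of -1.53 to -0.98 (limma adjusted p = 8.96e-05), and 9.89% of all genes tested had a larger decrease. This call held in all 17 alternative analyses. Cd247 lies on the plus strand of chromosome 1, positions 165788681 to 165877277 (mm10, GENCODE M21). Its exons share 3007 bases with those of Pou2f1 on the opposite strand and 206 with those of the noncoding Gm16565 on the same strand. No source used here says whether counting took strand into account. For the bases shared with Gm16565, strand could not tell the reads apart. Pou2f1, which encodes the octamer-binding factor Oct1, averaged 7.22 FPKM in GFP-positive and 5.56 FPKM in GFP-negative cells, and its log2 fold change of 0.34 did not pass (adjusted p = 0.127).

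Cd3d, whose product pairs with CD3 epsilon, came next. Its level was 49.8, 52.5 and 61.4 FPKM in the GFP-positive libraries, in order of number, and 86.7, 104 and 85.4 FPKM in GFP-negative libraries 1 to 3. The groups were 24.0 FPKM apart at their nearest libraries. The mean was 54.6 ± 6.07 FPKM in GFP-positive and 92.2 ± 10.6 FPKM in GFP-negative cells (SD, n = 3 each). Cd3d fell by 0.75 on the log2 scale (SE 0.13, 95% interval -1.05 to -0.46, limma adjusted p = 0.00142), and its call held in all 17 alternatives.

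Cd3e encodes the CD3 epsilon chain, the shared partner of CD3 gamma and CD3 delta. It was the most abundant of the 5 transcripts in every library, with 201, 204 and 186 FPKM in the GFP-positive libraries, in order of number, and 249.9, 299 and 249 FPKM in GFP-negative libraries 1 to 3. The groups did not overlap, and the spread was wider in GFP-negative cells, where library 2 was high. The mean was 197 ± 9.94 FPKM in GFP-positive and 266 ± 28.9 FPKM in GFP-negative cells (SD, n = 3 each). The log2 fold change was -0.43 ± 0.12 (SE, 95% interval -0.71 to -0.15, limma adjusted p = 0.0158). The call was lost without GFP-negative library 2 (-0.34, adjusted p = 0.0623) and without GFP-positive library 3 (-0.39, adjusted p = 0.0712), and quantile normalization gave -0.82.

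Cd3g, which encodes the other partner of CD3 epsilon, had 135, 133 and 131 FPKM in GFP-positive libraries 1 to 3, against 146, 186 and 160 FPKM in GFP-negative libraries 1 to 3. GFP-negative library 1 was only 10.4 FPKM above the nearest GFP-positive library. The mean was 133 ± 2.03 FPKM in GFP-positive and 164 ± 20.5 FPKM in GFP-negative cells (SD, n = 3 each). Its log2 fold change was -0.29 ± 0.12 (SE, 95% interval -0.57 to -0.015), which did not pass after adjustment (limma adjusted p = 0.0709). It did pass without GFP-negative library 1 (-0.37, adjusted p = 0.0258), in the table of 4 libraries (-0.39, adjusted p = 0.0426) and after quantile normalization (-0.47, adjusted p = 0.0131). The authors' deposited table of 6 libraries gave Cd3g a q of 0.0397, and their deposited table of 4 libraries a q of 0.0786. For Cd3e these q were 0.00159 and 0.0153, and for Cd3d as for Cd247 they were 0.00019 and 0.00034, in the authors' deposited tables of 6 and of 4 libraries. With q under 0.05 as the rule, 4 of the 5 genes passed in the authors' deposited table of 6 libraries. Of the 11616 genes given the status OK there, 49.3% did. In their table of 4 libraries 3 of the 5 passed, against 34.9% of the 11690 genes given the status OK there.

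In none of the 5 genes did the groups overlap. The same held for 63.8% of all genes tested, 28.7% with every GFP-positive library higher and 35.1% with every one lower. A two-sided exact permutation test of each gene gave p = 0.10, the smallest that 3 against 3 libraries allow. With quantile normalization the median over all genes shifted by 0.13 on the log2 scale, and the direction of each of the 5 genes held under it and in every other alternative.

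**Figure D2:**
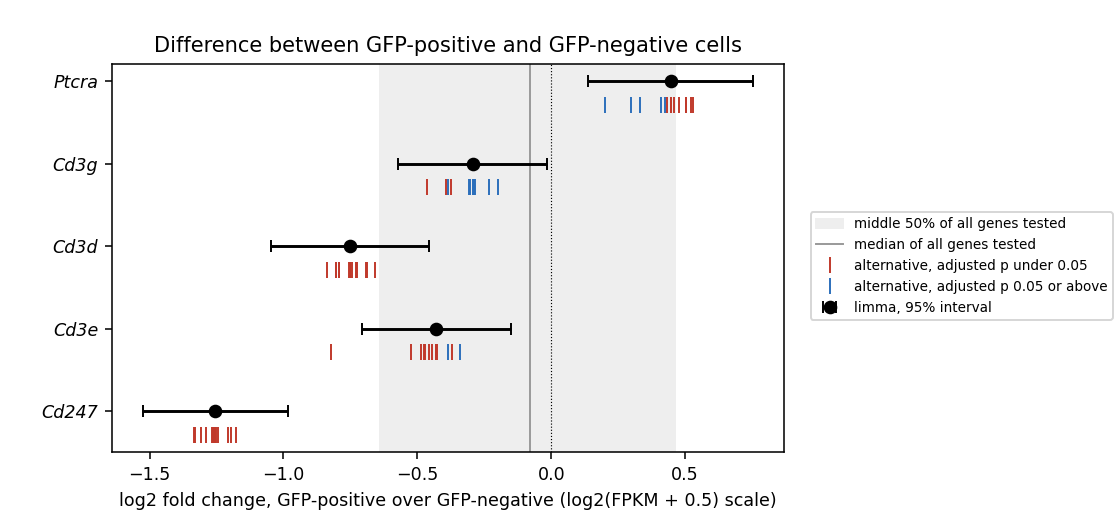
Log2 fold change of the 5 genes, GFP-positive over GFP-negative, with 95% intervals from limma (black) and, beneath each, its values in the 17 alternative analyses (red where the adjusted p was under 0.05, blue otherwise), over the median and the middle 50% of all 11465 genes tested (grey). Cd247 at -1.25 and Cd3d at -0.75 lie below the grey band, Cd3e and Cd3g inside it, and Ptcra at 0.45 near its upper edge.

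The order of the levels was the same at the top and at the bottom in all 6 libraries, with Cd3e first, Cd3g after it and Ptcra last. The order of Cd3d and Cd247 was not the same in every library. In GFP-positive cells Cd3d stood at 0.991, 1.14 and 1.18 times the level of Cd247 in libraries 1 to 3, so the 2 did not differ beyond their spread. In GFP-negative cells Cd3d stood at 0.728, 0.792 and 0.806 times the level of Cd247. Set against all genes tested, Cd3e was higher than 97.7% to 98.9% of them, Cd3g than 96.8% to 98.04%, Cd3d than 90.9% to 96.2%, Cd247 than 89.4% to 97.2% and Ptcra than 59.7% to 77.4%, over the 6 libraries.

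The summed FPKM of the 4 CD3 genes ran from 430.3 to 437 in GFP-positive libraries, against 600.4 to 722 in GFP-negative libraries, and the GFP-positive mean was 67.7% of the GFP-negative mean (exact permutation p = 0.10, two-sided, n = 3 each). The make-up of this sum changed as well. Cd247 took 11.4 ± 0.728% of it in GFP-positive and 18.6 ± 1.12% in GFP-negative cells (SD, n = 3 each). Cd3d took 12.6 ± 1.50% in GFP-positive and 14.4 ± 0.126% in GFP-negative cells, and here the groups overlapped (exact permutation p = 0.20). Cd3g took 30.7 ± 0.300% in GFP-positive cells and 25.6 ± 1.24% in GFP-negative cells, and Cd3e took 45.4 ± 1.97% in GFP-positive and 41.5 ± 0.0420% in GFP-negative cells. For Cd3g, Cd3e and Cd247 the exact permutation p of the share was 0.10.

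**Figure D3:**
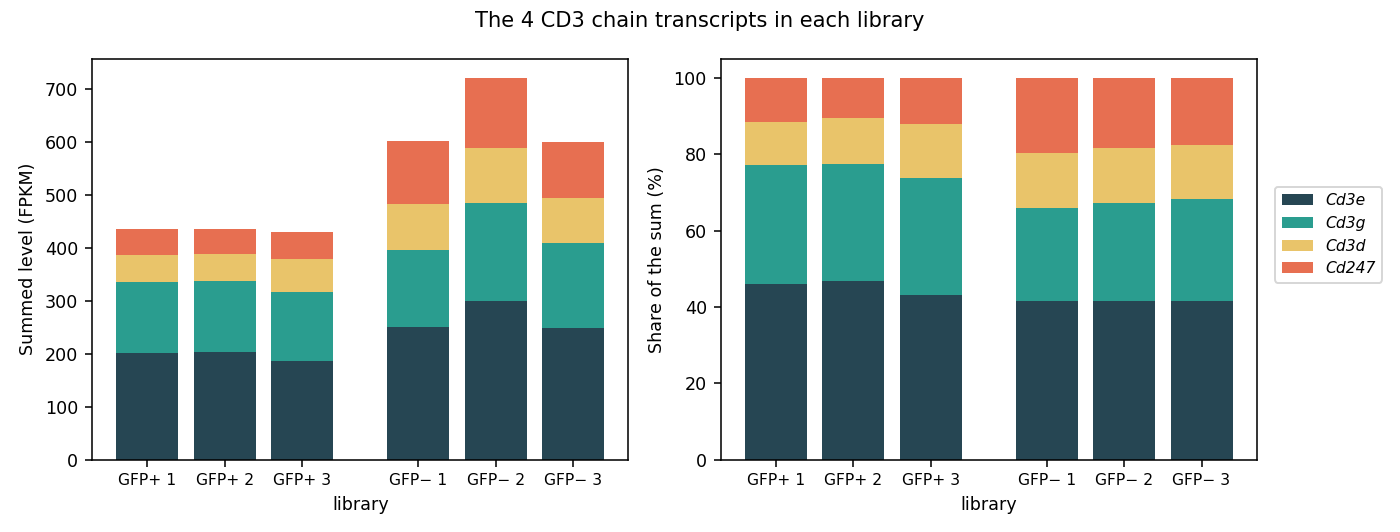
Levels of the 4 CD3 chain transcripts stacked for each library, in FPKM (left) and as percent of their sum (right), GFP-positive libraries left of GFP-negative ones. The sum is lower in the GFP-positive libraries (430.3 to 437 FPKM) than in the GFP-negative ones (600.4 to 722 FPKM), and the Cd247 segment is the one whose share shrinks most.

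Ratios of 2 genes within a library hardly change when its values are multiplied by 1 factor, but quantile normalization can change them. They were taken as log2 ratios of FPKM + 0.5 and compared for the 10 pairs of the 5 genes. The exact permutation test gave p = 0.10 in each pair, the smallest possible, and also after adjustment over the 10 pairs, so none can pass. The largest difference was that of Ptcra to Cd247. Their log2 ratio was -1.26 ± 0.17 in GFP-positive and -2.96 ± 0.23 in GFP-negative cells (SD, n = 3 each), a difference of 1.70. In FPKM, Ptcra was at 0.425, 0.453 and 0.360 of the level of Cd247 in GFP-positive libraries 1 to 3 and at 0.105, 0.126 and 0.145 of it in GFP-negative libraries 1 to 3. Against Cd3e, the difference in the log2 ratio of Ptcra was 0.88, with Cd3e 9.42 to 9.92 times as high as Ptcra in GFP-positive libraries and 16.2 to 19.9 times as high in GFP-negative libraries. The smallest difference was that of Cd3g to Cd3e, at -0.56 ± 0.06 in GFP-positive and -0.70 ± 0.07 in GFP-negative cells, a difference of 0.14 in the log2 ratio. Cd3e to Cd247 differed by 0.83, Cd3g to Cd247 by 0.96 and Cd3d to Cd247 by 0.50, each ratio being higher in GFP-positive cells. Between Cd3d and Cd3e, both called as lower, the log2 ratio was -1.85 ± 0.23 in GFP-positive and -1.53 ± 0.01 in GFP-negative cells, a difference of -0.32 that turned to 0.016 with quantile normalization. That normalization also moved the differences of the other pairs with Cd3e, to 1.34 for Ptcra to Cd3e, 0.36 for Cd3g to Cd3e and 0.51 for Cd3e to Cd247.

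Cd3g, Cd3d and Cd3e lie together on chromosome 9, within positions 44969572 to 45009627 of mm10. Cd3g on the minus strand and Cd3d on the plus strand start 1355 bases apart, and Cd3e on the minus strand ends 11401 bases beyond Cd3d. The pair that starts side by side, Cd3d and Cd3g, had log2 fold changes of -0.75 and -0.29, and the log2 ratio of Cd3g to Cd3d differed by 0.46 between the groups. Over the 6 libraries Cd3g was closer to Cd3e than to Cd3d: the root mean square difference of the centred log2 profiles was 0.087 for Cd3g and Cd3e and 0.255 for Cd3g and Cd3d. With quantile normalization this order was not seen in the difference between the groups, which was 0.34 for the log2 ratio of Cd3g to Cd3d and 0.36 for that of Cd3g to Cd3e. Of 5 other tested genes within 100 kb of the cluster, 2 rose and 2 fell. Atp5l, a subunit of mitochondrial ATP synthase, averaged 136 FPKM in GFP-positive and 63.2 FPKM in GFP-negative cells (log2 fold change 1.12, limma adjusted p = 0.000473). Mpzl2 (1.25), Mpzl3 (-0.65) and Kmt2a (-0.37), a histone methyltransferase gene, also passed, but each lost its call in 2 to 12 of its alternatives. Mpzl2 averaged 1.61 FPKM in GFP-positive and 0.437 FPKM in GFP-negative cells. It met the minimum for testing only through the GFP-positive group, so the filter favoured its rise. Ube4a (-0.22) did not pass. Around Cd247, 2 of 4 tested genes fell, Rcsd1 (-0.98) and Gm16565 (-1.91), and Creg1 (0.64) and Pou2f1 (0.34) did not pass. Gm16565 shares 206 exon bases with Cd247 on the same strand, so its value may not be independent of that of Cd247. Around Ptcra, 5 of 10 genes rose and 1 fell, with a median of 0.35, against 24.4% higher and 29.8% lower among all genes. Among them were Rpl7l1 (0.66), Ppp2r5d (0.53) and, lower, Gltscr1l (-0.92), while Mea1 (0.46) lost its call in 7 of 17 alternatives and Klhdc3 (0.38) in 3. The window of 100 kb was set after values had been seen.

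**Figure D4:**
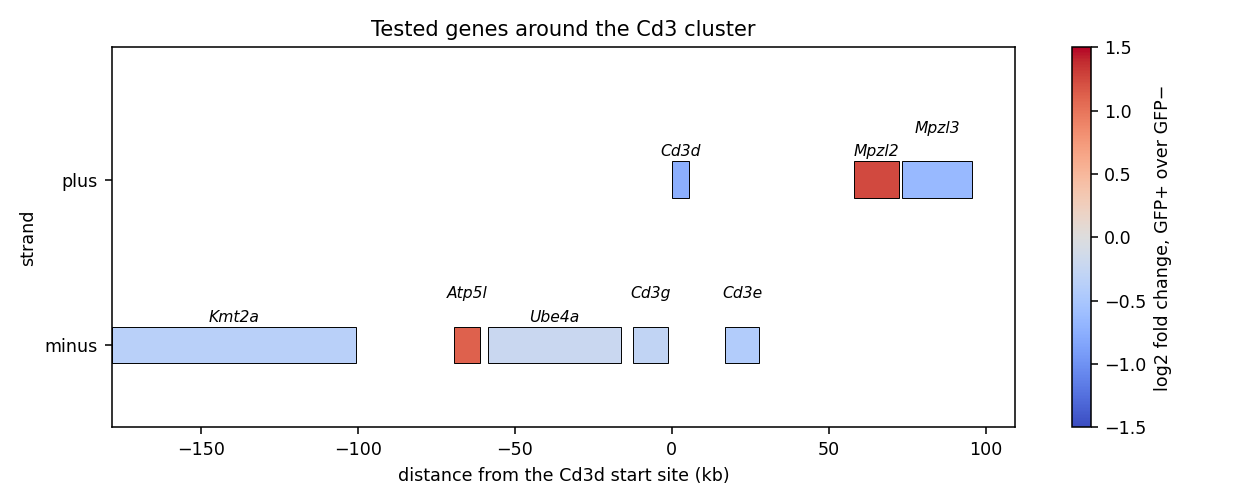
Map of the Cd3 cluster and the tested genes within 100 kb, as distance from the Cd3d start site in kb on the plus (top) and minus (bottom) strands, coloured by log2 fold change of GFP-positive over GFP-negative cells. Cd3g, Cd3d and Cd3e are in shades of lower expression (-0.29, -0.75 and -0.43), while Atp5l (1.12) and Mpzl2 (1.25) nearby are higher. Mpzl2 was low, at 1.61 FPKM in GFP-positive and 0.437 FPKM in GFP-negative cells.

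Genes whose profile over the 6 libraries came nearest to that of a member were found among 5661 genes with a mean of at least 10 FPKM, by the root mean square difference of centred log2(FPKM + 0.5) values. Nearest to Ptcra were Emc8 (0.037), Cnot11 (0.048) and Sptssa (0.050). For Cd247 they were Icam2, an adhesion molecule (0.040), Kdm3a, a histone demethylase (0.044), and Dok2, an adaptor that dampens TCR signalling (0.053). Cd3d was closest to Evi2b (0.041), Cep170 (0.055) and Zfp740 (0.055). The nearest to Cd3e were Derl1 (0.033), the noncoding RNA Tug1 (0.041) and BC005537 (0.048), and to Cd3g Rassf5 (0.036), 2610018G03Rik (0.040) and Ap3s1 (0.044). With 6 libraries in 2 groups such likeness mainly reflects a like difference between the groups: Icam2 had a log2 fold change of -1.19 beside the -1.25 of Cd247, and Emc8 one of 0.49, its call lost in 3 of 17 alternatives, beside the 0.45 of Ptcra.

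The chains that pair with or replace pre-TCR alpha were described from a list of TCR constant region genes, of which 6 were tested. Of these, 3 were higher and 3 lower, against 24.4% higher and 29.8% lower among all genes tested. The median log2 fold change of 0.84 fell between the genes that rose and those that fell. Trac, of the TCR alpha chain that takes the place of pre-TCR alpha, averaged 35.0 ± 17.8 FPKM in GFP-positive and 269.8 ± 68.3 FPKM in GFP-negative cells (SD, n = 3 each, log2 fold change -3.004, limma adjusted p = 0.000943). Trbc1, of the TCR beta chain, fell by 0.52, and Trbc2 had -0.33, a call lost in 10 of 16 alternatives (limma adjusted p up to 0.159). With quantile normalization they had -1.02 and -0.99. The gamma chain genes Tcrg-C2 (2.70), Tcrg-C1 (2.18) and Tcrg-C4 (2.02) rose. GFP-negative library 3 stood apart in them, with 20.4 FPKM of Tcrg-C2 against 5.56 and 5.49 FPKM in the other GFP-negative libraries, and without it Tcrg-C2 had 3.29. Without library 1 of both groups 3 of the 6 passed, 1 higher and 2 lower, in either table. Reads of constant regions that are near copies of each other, such as Trbc1 and Trbc2, may be split between them in ways that are uncertain. Tcrg-C3 was below the minimum, and Trdc was not analysed here.

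Of 22 genes that act on or downstream of the CD3 chains, 16 fell, 1 rose and 5 did not pass, with a median of -0.97, against 29.8% lower and 24.4% higher among all genes tested. Themis, which tunes the strength of TCR signals, averaged 80.6 ± 2.97 FPKM in GFP-positive and 313 ± 31.7 FPKM in GFP-negative cells (SD, n = 3 each, log2 fold change -1.95). Cd5, an inhibitory receptor set by receptor signals (-1.82), and Lcp2, the adaptor SLP-76 (-1.68), fell as well. In all 6 of these 22 genes fell more than Cd247. Csk, which restrains Lck, was the gene that rose, at 68.3 ± 4.46 FPKM in GFP-positive and 52.5 ± 0.638 FPKM in GFP-negative cells (0.38), a call lost in 2 of 17 alternatives (adjusted p up to 0.0989).

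Of 14 tested genes for assembly and turnover of the receptor, 2 rose, 6 fell and 6 did not pass (median -0.10). These 8 of 14 are near the 54.2% called among all genes tested. The chaperones of the endoplasmic reticulum Canx, calnexin, and Calr, calreticulin, rose by 0.99 and 0.63 on the log2 scale. Sla (-1.41) and Sla2 (-1.15), adaptors that bring CD3 chains to degradation, fell, as did Cbl (-0.92), the ubiquitin ligase they recruit, and Edem1 (-0.72), a factor of protein disposal from the endoplasmic reticulum. Sla, which targets the zeta chain, stood at 54.5 ± 1.01 FPKM in GFP-positive and 147 ± 16.7 FPKM in GFP-negative cells (SD, n = 3 each).

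A list of 15 genes held transcription factors described at the control regions of Ptcra or the Cd3 genes, and inhibitors of E proteins. Of them 2 rose, 5 fell and 8 did not pass (median -0.12). These 7 of 15 are near the 54.2% called among all genes tested. Gata3, the gene of the reporter, averaged 63.3 ± 0.801 FPKM in GFP-positive and 22.5 ± 1.77 FPKM in GFP-negative cells (SD, n = 3 each, log2 fold change 1.48). The groups were set by its reporter, so the call of Gata3 is not independent of the sort. Notch1, whose signal acts on the Ptcra enhancer, rose by 1.09. Myb (-1.34), Id3, an inhibitor of E proteins (-0.69), Ets1 (-0.66; -1.05 with quantile normalization) and Bcl11b (-0.50) fell. Id3 lost its call in 5 of 17 alternatives (adjusted p up to 0.0772). Of the ITAM adaptor chains of other receptors, only Cd79b, a chain of the B cell receptor, reached the minimum for testing, and it fell, with 2.66 ± 0.700 FPKM in GFP-positive and 7.83 ± 1.38 FPKM in GFP-negative cells (-1.41). Cd79a, its partner, averaged 0.305 FPKM in GFP-positive and 0.169 FPKM in GFP-negative cells, Fcer1g 0.246 FPKM in GFP-positive and 0.245 FPKM in GFP-negative cells, and Tyrobp 0.646 FPKM in GFP-positive and 0.313 FPKM in GFP-negative cells.

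**Figure D5:**
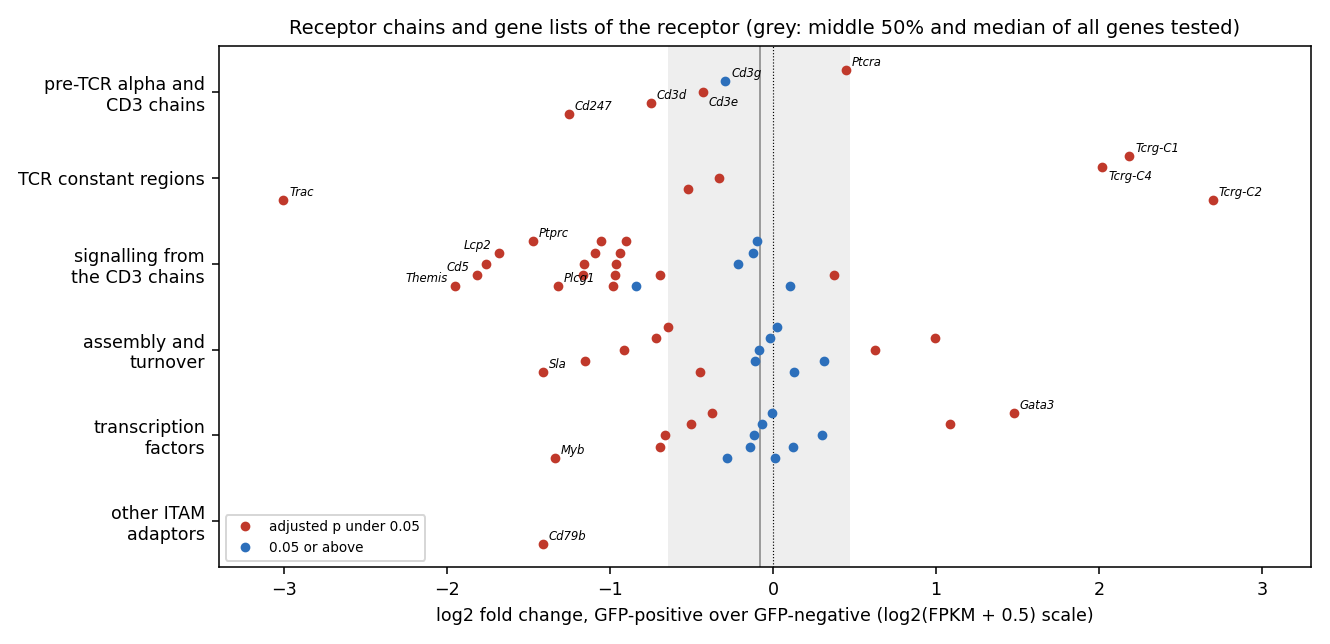
Log2 fold change, GFP-positive over GFP-negative, of the 5 genes and of each tested gene of 5 lists, coloured by adjusted p (red under 0.05, blue otherwise), with names for the 5 genes and for most changes beyond 1.3 on the log2 scale in either direction. The 22 signalling genes lie mostly to the left, where 16 fell and 1 rose, and the TCR constant regions lie at both ends.

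Many markers of other stages differed between the groups, by the same limma test. Among all genes tested, 24.4% were called higher and 29.8% lower in GFP-positive cells. The 10 markers of the double-positive stage all fell, and their summed FPKM was 493 to 511 in GFP-positive libraries and 2627 to 3683 in GFP-negative libraries. Of the gamma-delta T cell markers all 8 that were tested rose. Their sums were 236 to 240.5 FPKM in GFP-positive and 32.3 to 86.1 FPKM in GFP-negative libraries. In GFP-negative cells Sox13 (0.801 FPKM), Cd163l1 (0.368 FPKM), Blk (0.354 FPKM) and Maf (0.422 FPKM) averaged under 1 FPKM. They met the minimum for testing only through the GFP-positive group, so the filter favoured their rise. The 8 proliferation markers rose too (1128 to 1183 FPKM in GFP-positive and 372 to 599 FPKM in GFP-negative libraries), and of 5 tested markers of the preceding DN3 stage 2 rose and 0 fell (107 to 112 FPKM in GFP-positive and 48.3 to 68.3 FPKM in GFP-negative libraries). Most of the DN3 sum was Notch1, with 86.9 to 96.6 FPKM in GFP-positive and 36.3 to 56.8 FPKM in GFP-negative libraries. Hes1, which also rose, averaged only 3.18 FPKM in GFP-positive and 0.515 FPKM in GFP-negative cells. Hes1 too met the minimum for testing only through the GFP-positive group, so the filter favoured its rise. Il2ra (-0.10), Dtx1 (0.23) and Notch3 (0.37) did not pass. GFP-negative library 2, which held the highest value of its group for each of the 5 genes, also had the highest sum of double-positive markers. Their part in the differences of Ptcra and the CD3 genes was not tested. The double-positive and gamma-delta lists include Trac and 3 of the gamma constant regions given above. Cd4 and Cd8a, whose proteins DN4 cells lack at the surface, averaged 7.73 and 33.3 FPKM in GFP-positive and 230 and 281 FPKM in GFP-negative cells. The T lineage marker Thy1 was at 460.1 ± 46.1 FPKM in GFP-positive and 458 ± 53.5 FPKM in GFP-negative cells (SD, n = 3 each). The 5 markers each of B, NK, myeloid and erythroid cells and of thymic epithelium summed to at most 4.61 FPKM in any GFP-positive and 9.62 FPKM in any GFP-negative library, with Cd79b the largest part of the highest sum. The 4.61 FPKM was the NK sum of GFP-positive library 1, mostly Klrd1 (2.60 FPKM) and Klrb1c (1.81 FPKM). In GFP-positive libraries 2 and 3 the NK sum was 0.0925 and 0.432 FPKM. Pax5, S100a8, Foxn1 and Krt5 were listed at 0 in every library, and so was Siglech of the dendritic list, whose sum was nearly all Ccr9, a receptor of double-positive cells too. The 5 markers of the T lineage summed to 1632 to 1771 FPKM in GFP-positive and 2299 to 2717 FPKM in GFP-negative libraries, with 3 of 5 lower.

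Total reads per library were not given in the sources used here. Steps between the lowest FPKM values put the relative depth of the libraries at 0.871 to 1.27 times that of GFP-negative library 1, an estimate that rests on the 3.94% to 10.6% of low genes that share the most frequent step. Genes at or above 1 FPKM numbered 10793 to 10940 in GFP-positive and 11185 to 11632 in GFP-negative libraries. The first principal component, with 52.8% of the variance, separated the groups. On the second, with 15.5%, library 1 of both groups lay at the upper end (38.0 in GFP-positive and 38.5 in GFP-negative). GFP-negative library 3 lay at the lower end (-42.0), and the remaining libraries at -14.2 to -7.85.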

How the data were processed

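Per the labels' protocols, libraries were made from total RNA of DN4 thymocytes after removal of ribosomal RNA. Per the submitters' processing notes, TopHat2, Cuffdiff and the build mm10 were used; no source used here gives versions, settings, the annotation or the handling of strand. Per the file headers, the authors deposited 2 tables of FPKM per library, one of all 6 libraries and one without library 1 of each group, each with a q-value per gene. A side note on Gata3 in a further table was not used. FPKM are not counts, so no count test was run and depth gives no interval.

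The groups (n = 3 each) were compared by limma 3.58.1 (R 4.3.3; moderated statistics with a mean trend and robust variances) on log2(FPKM + 0.5), a scale that understates the change of low genes, in genes with a mean of at least 1 FPKM. The 24 genes with the status HIDATA were left out, 27 symbols turned into dates were looked up by gene ID, and positions came from GENCODE M21, where 40338 of 41386 IDs were found. The Benjamini-Hochberg adjustment ran over all genes tested. Exact permutation tests used SciPy 1.17.1. The procedure was run on 5 simulated data sets with 200 changed genes each. Far more genes were called in the data themselves, so the simulation does not show how the procedure behaves in this comparison. The 17 alternatives changed the pseudocount (0.1 or 1), the filter (none, or a mean of 5 FPKM), the scaling (quantile or upper quartile) or the variance model (no trend, not robust), or used a replicate block, each library left out in turn, library 1 of both groups left out, the table of 4 libraries, and protein-coding genes only.

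The genes and lists were chosen with earlier results of these data known. Named were the 5 genes, all tested TCR constant region and other ITAM adaptor genes, up to 4 called genes per direction in each other list by size of change, and for each member the 3 genes nearest in profile. A gene that this rule names in the signalling list is not reported here. Markers, genes near the loci and those below the minimum were named after their values were seen.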

Additional observations from a re-analysis of the deposited data

How the results depend on the processing

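Of the 5 genes, Cd247 (log2 fold change -1.33 to -1.18) and Cd3d (-0.84 to -0.66) kept direction and call in all 17 alternatives, and Ptcra, Cd3e and Cd3g kept their direction. Leaving out single libraries gave 0.33 to 0.53 for Ptcra, -0.47 to -0.34 for Cd3e and -0.37 to -0.20 for Cd3g, with calls lost or gained as the report gives them. Without library 1 of both groups Ptcra lost its call at 0.30, and in the table of 4 libraries at 0.20, while Cd3g gained one there (-0.39) and with quantile normalization (-0.47). In both of these fits of 4 libraries 3 of the 6 TCR constant region genes passed, and protein-coding genes only gave no value for that list. With quantile normalization the log2 ratio of Cd3d to Cd3e turned to 0.016. In each case the cause was not tested. The number of genes past the threshold was 4815 to 6424, against 6216. Quantile normalization split the calls into 3494 higher and 2846 lower, and upper quartile scaling into 3210 and 3214, against 2797 and 3419. The replicate block, under which 6390 genes passed, changed no call among the 5 genes. Same-numbered libraries of the groups had correlations of 0.094, -0.021 and 0.061 between their deviations from the group means, GFP-positive library 2 correlated best with GFP-negative library 3, and the numbers were not taken to pair them.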

Other observations

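Of 26 markers of other cells that lay below the minimum for testing, 4 had groups that did not overlap, all lower in GFP-positive cells, against 63.8% without overlap, in either direction, among the genes tested. Itgam, the integrin chain CD11b, averaged 0.027 ± 0.026 FPKM in GFP-positive and 1.88 ± 0.441 FPKM in GFP-negative cells (SD, n = 3 each). Prf1, which encodes perforin, averaged 0.0714 ± 0.0766 FPKM in GFP-positive and 0.918 ± 0.265 FPKM in GFP-negative cells. The others were Zbtb46 (0.337 ± 0.170 FPKM in GFP-positive and 1.10 ± 0.144 FPKM in GFP-negative cells) and Csf1r (0.0699 ± 0.0514 FPKM in GFP-positive and 0.188 ± 0.0409 FPKM in GFP-negative cells). Gzma, a granule protease of the gamma-delta list, rose, with 98.5 ± 3.07 FPKM in GFP-positive and 23.6 ± 12.0 FPKM in GFP-negative cells (log2 fold change 2.15, limma adjusted p = 0.00120). The DN3 marker Il2ra was at 2.48 ± 0.763 FPKM in GFP-positive and 2.66 ± 0.526 FPKM in GFP-negative cells and did not pass (log2 fold change -0.10, limma adjusted p = 0.743).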
